A study of Mus musculus with 28 samples.

Results

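The genes described here were 40 genes of DNA replication and of the G1/S transition that E2F transcription factors control, measured in ovaries of one-week-old mice. The rule was a list of symbols, with no threshold on a measured value. The list was made with earlier results of these data known, so shares of the 40 genes set against all genes are descriptive. All 40 were found among the 44674 genes of the bulk table and were among the 26790 genes that passed the filter on low counts, and all 40 were also found among the 31053 genes of the single-cell tables. By role they comprised 10 genes of origin licensing, 4 of helicase activation, 11 of the replication fork, 5 of nucleotide supply, 6 of histone and chromatin assembly and 4 of G1/S control.

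Wild-type (WT) and Chek2-/- females received a whole-body dose of 0.5 Gy of ionizing radiation (IR) or a sham treatment (non-IR), and ovaries were collected 6 h later. CHEK2 is a checkpoint kinase that acts downstream of DNA double-strand breaks, and Chek2-/- animals carried the whole-body knockout allele Chek2tm1b(EUCOMM)Hmgu, so the loss was not limited to one cell type of the ovary. Bulk mRNA libraries were made from paired ovaries for 4 groups of 6 (WT non-IR, WT IR, Chek2-/- non-IR and Chek2-/- IR). Single-cell libraries were made for the same 4 conditions, 1 library per condition, each pooled from 4 females. The methods of the study name C57BL/6J mice and a Chek2 line from the KOMP program. The labels did not state the strain background of the animals or whether WT and Chek2-/- females were littermates, so genotype and colony cannot be told apart in comparisons between genotypes.

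Before a cell copies its DNA, origins of replication are licensed by loading of the MCM helicase through the origin recognition complex, CDC6 and CDT1. CDC45 and the GINS complex then activate the helicase, and DNA polymerases with the PCNA clamp and its RFC loader copy the strands while new histones are deposited behind the fork. Most of these genes are transcribed at the G1/S transition, when cyclin E and its kinase release E2F factors from the retinoblastoma protein. CDKN1A (p21), the inhibitor of cyclin-dependent kinases that p53 induces, works against that release. In the juvenile ovary, granulosa and stromal cells divide, whereas oocytes are arrested in meiotic prophase and do not replicate DNA, although oocytes are known to store mRNAs for the divisions of the embryo.

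Promoter sequence was examined because E2F factors bind a short motif near the start of many replication genes. Windows of the 250 bases before the RefSeq start (mouse build GRCm38.p6) were searched on both strands for TTTGGCGC, TTTGCCGC, TTTCGCGC and TTTCCCGC, which can overlap one another. A window was on file for 35 of the 40 genes, and there was no entry for Gins1, Gins2, Ccne2, Pole and Mcm4. Some genes had more than 1 window, and a gene counted if any of its windows held a match. The motif was present in 8 of the 35 (22.9%), against 583 of 27025 genes (2.16%). The 8 were Cdc6, Mcm5, Mcm6, Mcm7, Orc1, Pola1, Rfc3 and Uhrf1, so that 5 of the 9 origin licensing genes with a window held it (55.6%), 2 of 10 fork genes (20%) and 1 of 6 histone and chromatin genes (16.7%). No match was present in the windows of the 5 nucleotide supply genes, the 3 G1/S genes or the 2 helicase activation genes. The whole E2f1 window lay in an annotated E2f1 exon, because its RefSeq start was 294 bases after the nearest start in the GENCODE annotation. Its lack of a match thus does not describe the sequence before that start. A window of Fen1, of Lig1 and of Mcm7 and the window of Slbp also lay wholly in annotated exons of these or other genes. The Mcm7 match lay in that exonic window. Outside the 40 genes, the motif was present in 5 of 28 other replication genes (17.9%), 6 of 19 other E2F and RB genes (31.6%) and 1 of 13 G2 and mitosis genes (7.69%). A window that also took in the 50 bases after the start held it in 14 of the 35 genes (40.0%) and in 704 of all genes (2.6%). Median GC content of the windows was 59.7% for the replication genes and 52.4% for all genes. A match describes letters in a window and is not a binding site.

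The sequences below are shown 5′ to 3′ on the strand of the gene, with motif matches in capitals. Cdt1, Tk1 and Uhrf1 were lower in non-irradiated Chek2-/- than WT ovaries (below), as was E2f1, whose window is not shown. Orc1, Mcm5 and Mcm6 were picked for holding a match among genes with low p-values in irradiated WT ovaries. Their matches therefore say nothing about a link between the motif and IR. Of the other genes lower there at an unadjusted p under 0.05, Mcm2, Mcm3, Pold1, Rfc5, Rpa2, Lig1 and E2f1 held no match. Rfc3 held a match and Pole had no window. The window of Cdt1 (chr8:122567765-122568014, + strand) and the part of the Tk1 window outside a Tk1 exon (chr11:117826093-117826264, − strand, 250 to 79 bases before the start) held no match. For Uhrf1 the second of its windows is shown (chr17:56304063-56304312, + strand), with 1 match 185 bases before the start. Mcm5 (chr8:75109259-75109508, + strand) had overlapping matches at 153 and 149 bases, and Mcm6 (chr1:128359706-128359955, − strand) had overlapping matches at 110 and 106 bases and a further match at 47 bases. For Orc1 only the 30 bases with its match at 27 bases are shown (chr4:108579424-108579453, + strand), which lie in an annotated Orc1 exon.
Cdt1: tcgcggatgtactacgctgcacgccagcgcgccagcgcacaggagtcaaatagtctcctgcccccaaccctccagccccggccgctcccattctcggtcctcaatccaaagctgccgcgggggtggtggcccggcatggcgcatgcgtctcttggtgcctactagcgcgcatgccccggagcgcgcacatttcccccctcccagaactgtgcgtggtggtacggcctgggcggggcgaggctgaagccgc
Tk1: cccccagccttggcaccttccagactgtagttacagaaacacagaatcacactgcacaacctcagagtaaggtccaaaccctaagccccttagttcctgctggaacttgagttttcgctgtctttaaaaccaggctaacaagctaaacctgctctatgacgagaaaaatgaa
Uhrf1: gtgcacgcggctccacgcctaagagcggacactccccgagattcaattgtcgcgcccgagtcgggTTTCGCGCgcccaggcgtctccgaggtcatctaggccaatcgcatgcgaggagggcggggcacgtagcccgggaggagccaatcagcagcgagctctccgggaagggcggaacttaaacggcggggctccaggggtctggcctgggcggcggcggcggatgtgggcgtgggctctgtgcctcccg
Mcm5: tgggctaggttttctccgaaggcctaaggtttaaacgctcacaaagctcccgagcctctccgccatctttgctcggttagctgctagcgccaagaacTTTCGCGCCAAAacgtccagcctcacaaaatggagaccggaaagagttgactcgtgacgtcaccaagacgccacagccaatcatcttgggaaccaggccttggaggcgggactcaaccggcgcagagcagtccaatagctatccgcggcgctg
Mcm6: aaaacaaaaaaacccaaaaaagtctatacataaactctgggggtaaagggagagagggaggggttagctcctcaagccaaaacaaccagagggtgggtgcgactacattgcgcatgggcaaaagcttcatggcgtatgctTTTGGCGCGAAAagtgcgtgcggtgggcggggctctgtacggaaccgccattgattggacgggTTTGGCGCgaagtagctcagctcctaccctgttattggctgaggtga
Orc1: gtgGCGCGAAAagttttctcctgtgccttc

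Bulk libraries held 17824920 to 32605519 estimated counts, and values below are CPM, counts scaled to TMM library sizes and a common total. The targeted gene was low as labelled in all 12 Chek2-/- libraries. Chek2 was at 19.78 to 24.55 CPM (median 22.52) in non-irradiated and 18.53 to 23.53 CPM (median 21.31) in irradiated WT ovaries. It was at 2.881 to 4.436 CPM (median 3.723) in non-irradiated and 3.341 to 4.528 CPM (median 4.047) in irradiated Chek2-/- ovaries. The labelled tissue was checked by 8 oocyte and 8 granulosa markers, whose summed levels were at least 1058 and 1318 CPM in every library. The Chek2-/- libraries numbered 6 stood apart, with oocyte marker sums of 1058 CPM (non-IR) and 1188 CPM (IR) against 1905 to 2499 CPM in the other 22. Counts of called genes without both libraries are given for some comparisons. The counts tested here were compared in edgeR over all 26790 genes, with a call at an adjusted p of at most 0.05 and no minimum fold change. Log2 fold changes (log2FC) are given with their standard error (SE), and in bulk RNA fewer cells of a type and less RNA per cell cannot be told apart.

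Per kilobase of exon sequence in non-irradiated WT ovaries, the highest of the 40 genes was Uhrf1, which recruits the maintenance DNA methyltransferase to newly copied DNA, at 101.5 CPM per kb. The sliding clamp gene Pcna followed at 50.97 and the helicase subunit gene Mcm6 at 35.26 CPM per kb. The highest members of the remaining roles were Dut (21.01 CPM per kb), which keeps uracil out of the nucleotide pool, E2f1 (20.41) and Gins2 (13.21). The summed level of the 40 genes was 2537 to 2854 CPM (median 2629) in non-irradiated and 2412 to 2619 CPM (median 2508) in irradiated WT ovaries. In Chek2-/- ovaries it was 2020 to 2564 CPM (median 2538) without and 2099 to 2578 CPM (median 2498) with irradiation. All 4 ranges overlapped, and the 2 lowest sums were those of the Chek2-/- libraries numbered 6.

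**Figure D1:**
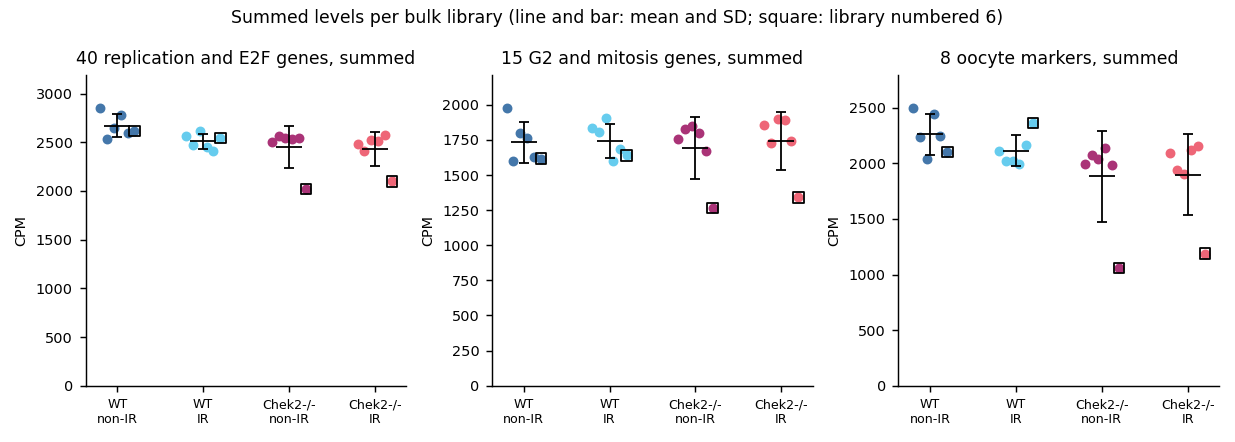
Summed CPM (y axis) in each of the 24 bulk libraries by group (x axis), for the 40 replication and E2F genes, the 15 G2 and mitosis genes and the 8 oocyte markers. Points are libraries, lines and bars the mean and SD of 6 libraries, and squares mark the libraries numbered 6. In both Chek2-/- groups that library was the lowest in all 3 panels, at 2020 and 2099 CPM for the replication and E2F genes.

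To ask whether replication genes responded to IR, irradiated WT ovaries were compared with non-irradiated WT ovaries. No replication or E2F gene passed the edgeR test, where 646 of all genes (2.41%) did. DESeq2 called 2 of the 40, Orc1 lower and Ccne1 higher, where 3.39% of its genes were called, and limma-voom called 0. At an unadjusted p under 0.05, 14 of the 40 genes differed, 12 of them lower and 2 higher after IR. The share of lower genes at that p was 5.67% over all genes tested and 8.14% over the 10780 genes within the range of mean CPM of the 40. The log2FC was negative for 36 of the 40, with a median of -0.10, where 51.12% of all genes and 60.62% of the genes of that range were negative.

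The 12 lower genes were 5 of origin licensing, 6 of the fork and 1 of G1/S control. All 10 licensing genes had a negative log2FC and 5 had a p under 0.05 (Orc1, Mcm2, Mcm3, Mcm5 and Mcm6). All 11 fork genes were negative too, and 6 had a p under 0.05, namely the polymerase subunits Pold1 and Pole, the clamp loader subunits Rfc3 and Rfc5, the single-strand binding subunit Rpa2 and the ligase gene Lig1. All 4 helicase activation genes (median log2FC -0.10) and all 6 histone and chromatin genes (median log2FC -0.07) were negative as well, and none of them had a p under 0.05. Of the 5 nucleotide supply genes 1 was higher at that p (Rrm2), and of the 4 G1/S genes 1 was lower (E2f1) and 1 higher (Ccne1).

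Orc1 encodes the largest subunit of the origin recognition complex. Its level was 20.21 to 28.36 CPM (median 24.7) in non-irradiated and 16.69 to 20.15 CPM (median 17.37) in irradiated WT ovaries. The WT groups did not overlap, although the margin was narrow. In Chek2-/- ovaries Orc1 was at 14.64 to 28.63 CPM (median 28.03) without and 19.22 to 28.64 CPM (median 27.02) with IR, and both lowest values were those of the libraries numbered 6. In WT the log2FC was -0.46 (SE 0.13, edgeR adjusted p = 0.052), just outside the threshold.

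Pole, the catalytic subunit of the leading-strand polymerase, was at 81.27 to 97.01 CPM (median 93.95) without and 75.22 to 87.38 CPM (median 79.69) with IR in WT ovaries. These groups overlapped through 1 low non-irradiated library. The log2FC was -0.21 (SE 0.063, edgeR adjusted p = 0.095). Ccne1, which encodes cyclin E1, was the largest positive value of the 40. It was at 7.766 to 10.68 CPM (median 9.508) without and 10.64 to 12.3 CPM (median 11.6) with IR in WT ovaries, so that only the edges of the groups met. Its log2FC was 0.28 (SE 0.084, edgeR adjusted p = 0.095).

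E2f1, an activator of the G1/S genes, was at 60.67 to 69.37 CPM (median 64.15) in non-irradiated WT ovaries. After IR it was at 53.57 to 57.08 CPM (median 54.62), with no overlap. Its log2FC was -0.23 (SE 0.084, edgeR adjusted p = 0.23). Orc1 and E2f1 were the 2 of 40 genes whose irradiated WT libraries all lay below the non-irradiated ones, a pattern that 0.885% of all genes showed. Rrm2, the S-phase subunit of ribonucleotide reductase, was at 29.51 to 36.37 CPM without and 35.57 to 45.39 CPM with IR, with a log2FC of 0.19.

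The count of 0 depended on the libraries that entered the fit. Without both Chek2-/- libraries numbered 6, which are in neither WT group but enter the shared estimate of spread and the filter on low counts, 6 of the 40 genes were called lower (Orc1, Pole, E2f1, Lig1, Mcm5 and Mcm6, edgeR adjusted p = 9.6e-05 to 0.041), a choice made after seeing the data. In that fit 3.81% of all genes were called, 1.7% as lower. With the WT groups alone in the fit, E2f1, Orc1 and Lig1 were called lower (edgeR adjusted p = 0.0063 to 0.048), where 2.89% of all genes were called, 0.964% as lower. Without the non-irradiated WT library numbered 2, Orc1 and Pole were called lower (edgeR adjusted p = 0.031 and 0.041), where 0.97% of all genes were. The 8 oocyte markers moved with these genes, all 8 with a negative log2FC, 4 at a p under 0.05 and 0 called. Their summed level was 2039 to 2499 CPM without and 1991 to 2363 CPM with IR in WT ovaries. Of 8 granulosa markers 6 had a negative log2FC (median -0.10) and 0 had a p under 0.05. The 5 neutrophil markers were all positive, 2 at a p under 0.05 and 0 called, and 1 library carried them, the irradiated WT library numbered 3 at a sum of 850.6 CPM against 1.031 to 1.96 CPM in the other 5. Without that library 0 of the 40 genes were called as well. All 8 macrophage markers (median log2FC 0.27) and all 6 oviduct and uterus markers (median 0.50, 1 at a p under 0.05) were positive too, 5 of 6 erythroid markers were negative (median -0.45), and no marker of any list was called. The part of these marker levels in the result was not tested.

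**Figure D2:**
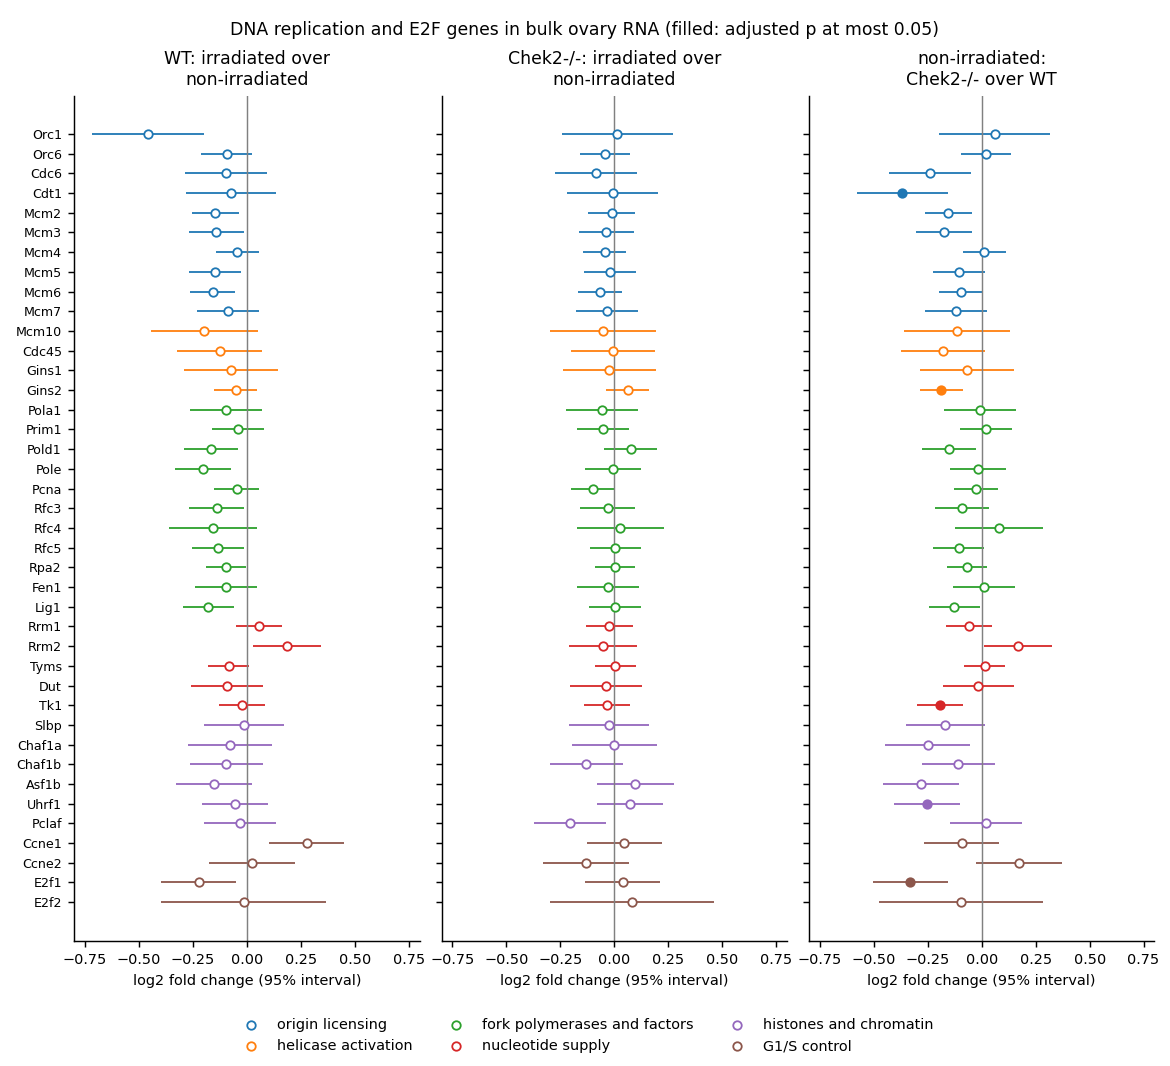
Log2 fold change (x axis) of each of the 40 genes (y axis, coloured by role) in 3 bulk comparisons, with 95% intervals from edgeR. Filled points passed an adjusted p of 0.05. No point is filled after IR in either genotype, and Cdt1, Gins2, Tk1, Uhrf1 and E2f1 are filled on the negative side between non-irradiated genotypes. In WT ovaries 36 of 40 points lie below 0.

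Of the wider pathway, Cdkn1a was called higher in irradiated WT ovaries, with a log2FC of 1.67 (SE 0.13, edgeR adjusted p = 2.5e-09). It was at 21.97 to 36.6 CPM (median 25.22) without and 75.48 to 103.9 CPM (median 87.17) with IR, with no overlap. Rb1, which encodes the retinoblastoma protein, was the only other called gene among 26 other E2F and RB genes (log2FC 0.43, SE 0.085, edgeR adjusted p = 0.0032). None of 37 other replication genes was called by edgeR, and 8 had a lower level at an unadjusted p under 0.05, Pold3 (log2FC -0.13) and Rpa1 (log2FC -0.17) among them. None of the 15 G2 and mitosis genes was called or had a p under 0.05, and the smallest p-values among them belonged to Cdc20 (log2FC 0.13) and Ube2c (log2FC -0.10).

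To ask whether the kinase was needed, the same comparison was made in Chek2-/- ovaries. No replication or E2F gene was called by edgeR or DESeq2, where 3 of all genes (0.0112%) passed edgeR. At an unadjusted p under 0.05, 1 gene was lower, where 2.28% of all genes were. That gene was Pclaf, a PCNA-binding factor, at 28.55 to 35.74 CPM (median 33.39) without and 24.73 to 31.54 CPM (median 28.48) with IR, and the groups overlapped. Its log2FC was -0.21 (SE 0.081). The next smallest p-values belonged to Pcna (log2FC -0.10) and to Chaf1b (log2FC -0.13), a subunit of chromatin assembly factor 1. The median log2FC of the 40 genes was -0.02, and 26 were negative, where 49.98% of all genes were. No marker was called in this comparison. All 5 neutrophil markers were positive, 4 at an unadjusted p under 0.05, with a sum of 880.8 CPM in the irradiated library numbered 2 against 1.167 to 3.126 CPM in the other 5, and without that library 0 of the 40 genes were called too. All 8 epithelial, 6 perivascular, 6 erythroid and 6 oviduct and uterus markers were negative, 3 of the last list at that p, and 7 of 8 macrophage markers were positive, 1 of them at that p. Their part in the values of the 40 genes was not tested. Cdkn1a was at 31.82 to 42.95 CPM without and 37.31 to 59.02 CPM with IR (log2FC 0.31, not called).

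The difference between the IR effects of the genotypes, WT minus Chek2-/-, was tested as an interaction. None of the 40 genes was called by edgeR, where 277 of all genes (1.03%) were, and 6 had an unadjusted p under 0.05, where 9.14% of all genes did. Of these 6, 5 were negative, where 4.7% of all genes were negative at that p. DESeq2 and limma-voom called 0 as well. The difference was negative for Pold1 (log2 difference -0.24), Orc1 (-0.47), Pole (-0.20), Lig1 (-0.18) and E2f1 (-0.265) and positive for Rrm2 (0.24). Pold1, the catalytic subunit of the lagging-strand polymerase, was at 58.35 to 69.81 CPM without and 53.76 to 60.55 CPM with IR in WT ovaries, and at 48.83 to 62.47 CPM without and 55.45 to 68.23 CPM with IR in Chek2-/- ovaries. Cdkn1a was called, with a log2 difference of 1.36 (edgeR adjusted p = 5.4e-05). All 8 oocyte markers were negative (median log2 difference -0.24, 3 at an unadjusted p under 0.05). All 6 oviduct and uterus markers (3 at that p) and all 6 perivascular markers were positive, and the other lists went both ways. No marker was called, and their part in the values of the 40 genes was not tested. Without both Chek2-/- libraries numbered 6 the difference was called for Orc1 alone (log2 difference -0.42, edgeR adjusted p = 0.031), where 1.31% of all genes were called. An IR effect on these genes that differs between genotypes was therefore not shown with all libraries, and the tests share the libraries of the comparisons above.

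**Figure D3:**
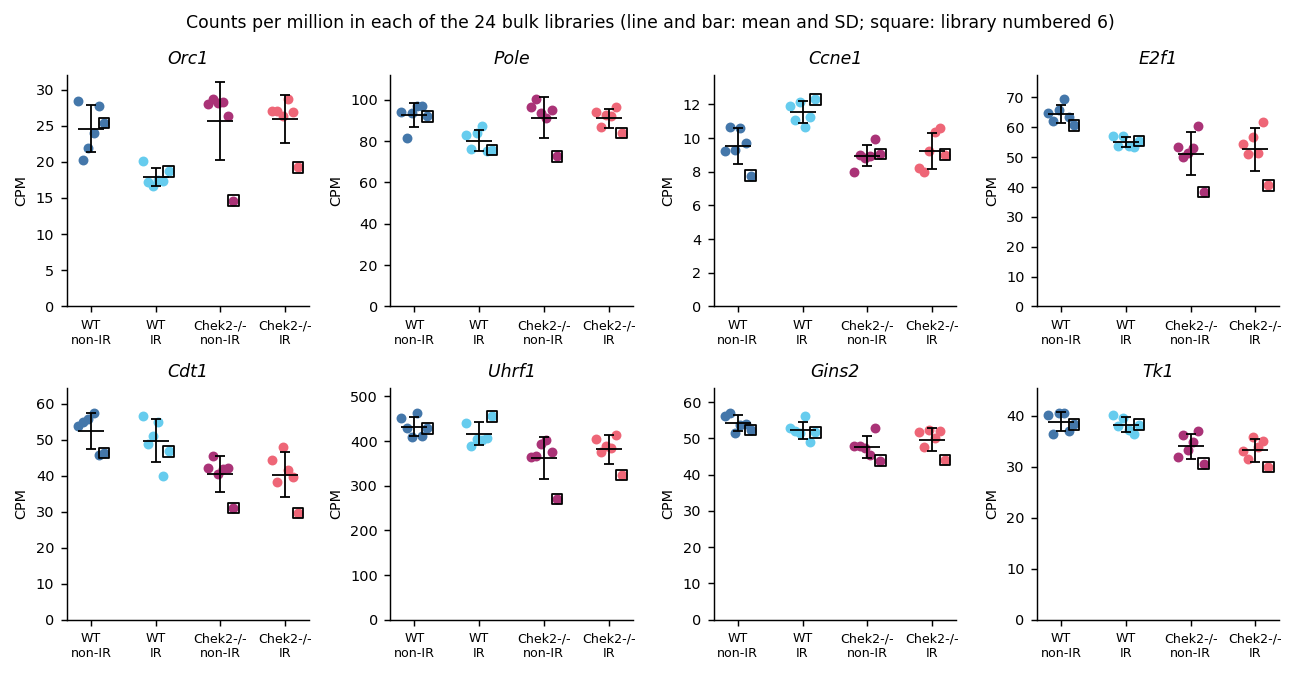
CPM (y axis, from 0) of 8 genes in each of the 24 bulk libraries by group (x axis), with the mean and SD of 6 libraries as line and bar and the libraries numbered 6 squared. Orc1 and E2f1 of irradiated WT libraries lie below all non-irradiated WT libraries, and Cdt1, E2f1 and Uhrf1 of non-irradiated Chek2-/- libraries lie below all non-irradiated WT libraries.

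Without irradiation, 5 of the 40 genes were lower in Chek2-/- than in WT ovaries. They were Cdt1 and Gins2 of licensing and helicase activation, Tk1, Uhrf1 and E2f1, and none was higher. Over all genes 5.34% were called in this comparison, 2.22% as lower, and among genes of the same range of mean CPM 4.42% were called lower. At an unadjusted p under 0.05, 12 of the 40 were lower (all genes 9.97%, genes of that range 17.14%) and 1 was higher (Rrm2). In 5 of the 40 (Cdt1, E2f1, Uhrf1, Asf1b and Chaf1a) every Chek2-/- library lay below every WT library, a pattern that 1.53% of all genes showed. The median log2FC was -0.10, and 30 of 40 were negative, where 48.22% of all genes and 52.77% of the genes of that range were. This comparison shares the non-irradiated WT libraries with the IR comparison above.

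Cdt1, the loading factor of the MCM helicase, was at 45.84 to 57.52 CPM (median 54.35) in WT and 31.04 to 45.61 CPM (median 41.92) in Chek2-/- ovaries without IR. The groups did not overlap, by a narrow margin. Its log2FC was -0.37 (SE 0.10, edgeR adjusted p = 0.036). E2f1 was at 60.67 to 69.37 CPM (median 64.15) in WT and 38.27 to 60.61 CPM (median 52.35) in Chek2-/- ovaries, again with no overlap. Its log2FC was -0.33 (SE 0.084, edgeR adjusted p = 0.024). Uhrf1 was at 408.7 to 463.6 CPM (median 428.5) in WT and 270.3 to 402.5 CPM (median 371.3) in Chek2-/- ovaries, with no overlap. Its log2FC was -0.25 (SE 0.074, edgeR adjusted p = 0.045).

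Gins2, a subunit of the GINS complex, was at 51.37 to 57.08 CPM (median 53.85) in WT and 43.84 to 52.82 CPM (median 47.56) in Chek2-/- ovaries without IR. The groups overlapped, and the log2FC was -0.19 (SE 0.048, edgeR adjusted p = 0.025). Tk1, the thymidine kinase of the nucleotide salvage route, was at 36.49 to 40.59 CPM (median 39.24) in WT and 30.62 to 36.93 CPM (median 34.11) in Chek2-/- ovaries. These groups overlapped too, and the log2FC was -0.19 (SE 0.051, edgeR adjusted p = 0.028). With IR the medians of WT and Chek2-/- ovaries were 49.91 and 40.68 CPM for Cdt1, 54.62 and 52.91 CPM for E2f1, 405.4 and 386.2 CPM for Uhrf1, 51.89 and 51.0 CPM for Gins2 and 38.1 and 33.44 CPM for Tk1. The ranges of the irradiated groups overlapped for Cdt1, E2f1, Uhrf1 and Gins2 and not for Tk1, and this contrast was not tested.

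These calls were sensitive to single libraries, while the log2FC stayed negative without any one library of the compared groups, at -0.40 to -0.30 for Cdt1, -0.38 to -0.26 for E2f1 and -0.28 to -0.18 for Uhrf1. With the compared groups only, Cdt1 and E2f1 were the 2 called, where 3.17% of all genes were, 1.56% as lower. Without the non-irradiated WT library numbered 4 none of the 5 was called, and without the non-irradiated Chek2-/- library numbered 6 only E2f1 was. E2f1 also lost its call without the non-irradiated WT library numbered 3 (edgeR adjusted p = 0.0531, and 0.0699 without number 4). Cdt1 lost its call without any one of the WT libraries numbered 1 to 4 or the Chek2-/- libraries numbered 1, 3, 4 and 6 (edgeR adjusted p = 0.0557 to 0.0959). For Uhrf1 these were the WT libraries numbered 1 to 4 and 6 and the Chek2-/- libraries numbered 1, 2 and 6 (edgeR adjusted p = 0.0537 to 0.117). For Tk1 they were the WT libraries numbered 1, 3 and 4 and the Chek2-/- libraries numbered 1, 3 and 6 (edgeR adjusted p = 0.0547 to 0.0844), and for Gins2 the WT libraries numbered 1, 2 and 4 and the Chek2-/- libraries numbered 4 and 6 (edgeR adjusted p = 0.0513 to 0.0683). Without both Chek2-/- libraries numbered 6, a choice made after seeing the data, 6 of the 40 were called lower, the sixth being Chaf1a, where 7.09% of all genes were called, 3.72% as lower. With a minimum of 2-fold none of the 40 was called.

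Marker levels also differed between the non-irradiated genotypes. Of 8 granulosa markers 4 were lower at an unadjusted p under 0.05, 0 were called lower and 1 was called higher, with sums of 1570 to 2022 CPM in WT and 1346 to 1804 CPM in Chek2-/- ovaries. Of 7 fibroblast markers 2 were called lower, with sums of 4311 to 5587 and 3377 to 4706 CPM. Of 6 pericyte markers 2 were called lower, with sums of 316.2 to 392.3 and 325.6 to 629.3 CPM. The 6 perivascular markers all had a negative log2FC (median -0.55), 3 at an unadjusted p under 0.05 and 0 called, with sums of 277.3 to 423.2 and 171.5 to 328.9 CPM. The 6 erythroid markers were all higher at an unadjusted p under 0.05 and none was called, with sums of 221.6 to 925.8 and 198.4 to 10450 CPM. Of 8 oocyte markers 2 were lower and 1 higher at that p, with sums of 2039 to 2499 and 1058 to 2138 CPM. Of 6 oviduct and uterus markers 1 was called higher, with sums of 11.63 to 20.3 and 13.75 to 35.31 CPM, and no endothelial, epithelial, macrophage or neutrophil marker was called. No marker of the granulosa, fibroblast, pericyte, perivascular and oocyte lists was at 0 in any library, and 1 erythroid marker was at 0 in at least 1 library. The part of these differences in the levels of the replication genes was not tested. In the wider pathway, Orc4 of the origin recognition complex (log2FC 0.32, edgeR adjusted p = 0.014), Cdkn1a (log2FC 0.47, edgeR adjusted p = 0.031) and Lin54, a subunit of the MuvB complex (log2FC 0.19, edgeR adjusted p = 0.036), were called higher. No other of the 37 replication, 26 E2F and RB and 15 G2 and mitosis genes was called.

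Single-cell libraries were used to locate these genes among cell types. After filtering, 9277 (WT non-IR), 9779 (WT IR), 8697 (Chek2-/- non-IR) and 8771 (Chek2-/- IR) cells were used, with library medians of 13908 to 17135 unique molecular identifiers (UMIs) per cell, and libraries shared 30 to 73 cell barcodes. Clustering left out the 40 genes and the other listed replication, E2F and RB genes and gave 18 clusters, which were named by markers. The G2 and mitosis genes were not left out, so they could shape the dividing clusters that they also name. Levels are given as UPM, in which the UMIs of a gene are scaled to the same common total as CPM within each class and library, with exact Poisson limits for sums and exact binomial limits for ratios and shares, at 95%. With 1 library per condition there was no test, and these limits cover counting error only.

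In the non-irradiated WT library the summed level of the 40 genes was highest in oocyte-like cells, at 2837 UPM, followed by granulosa-like (2233), fibroblast-like (2061), pericyte-like (1840), epithelial-like (1582), endothelial-like (1474) and perivascular-like cells (1097). This order leaves out macrophage-like (1762) and erythroid-like cells (1505), which were not compared. Granulosa-like and fibroblast-like cells each had 1 cluster named as dividing, in which all 15 G2 and mitosis markers passed the marker limits. The level per UMI was highest there. It was 3687 UPM in the dividing granulosa-like cluster 0 against 692.3 to 2211 UPM in the other 3 granulosa-like clusters, and 4357 UPM in the dividing fibroblast-like cluster 6 against 992.5 to 2297 UPM in the other 3. In granulosa-like cells the larger cluster 1 held nearly as many UMIs of the 40 genes (71933) as cluster 0 (76416). Oocyte-like cells passed 11 of the 15 G2 and mitosis markers.

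The genes that led differed between classes. With the 4 libraries pooled, oocyte-like cells were led by Uhrf1 (421.6 UPM), Dut (284.9 UPM) and Slbp (207.6 UPM), the last a histone mRNA stem-loop binding protein. Granulosa-like cells were led by Dut (243.3 UPM), Lig1 (185.3 UPM) and Pclaf (154.5 UPM), and fibroblast-like cells by Pclaf (254.2 UPM), Slbp (153.5 UPM) and Dut (126.7 UPM). Epithelial-like cells were led by Dut (151.4 UPM), Rrm1 (131.7 UPM), the large subunit of ribonucleotide reductase, and Pclaf (123.7 UPM). The order was not the same in each library. In the non-irradiated WT library Mcm6 (116.9 UPM) was above Dut (114.8 UPM) in fibroblast-like cells, and in the non-irradiated Chek2-/- library Gins2 (172.5 UPM) was above Slbp (158.6 UPM) in oocyte-like cells. In epithelial-like cells of both non-irradiated libraries Slbp (104.8 and 99.77 UPM) was above Pclaf (96.05 and 78.29 UPM).

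**Figure D4:**
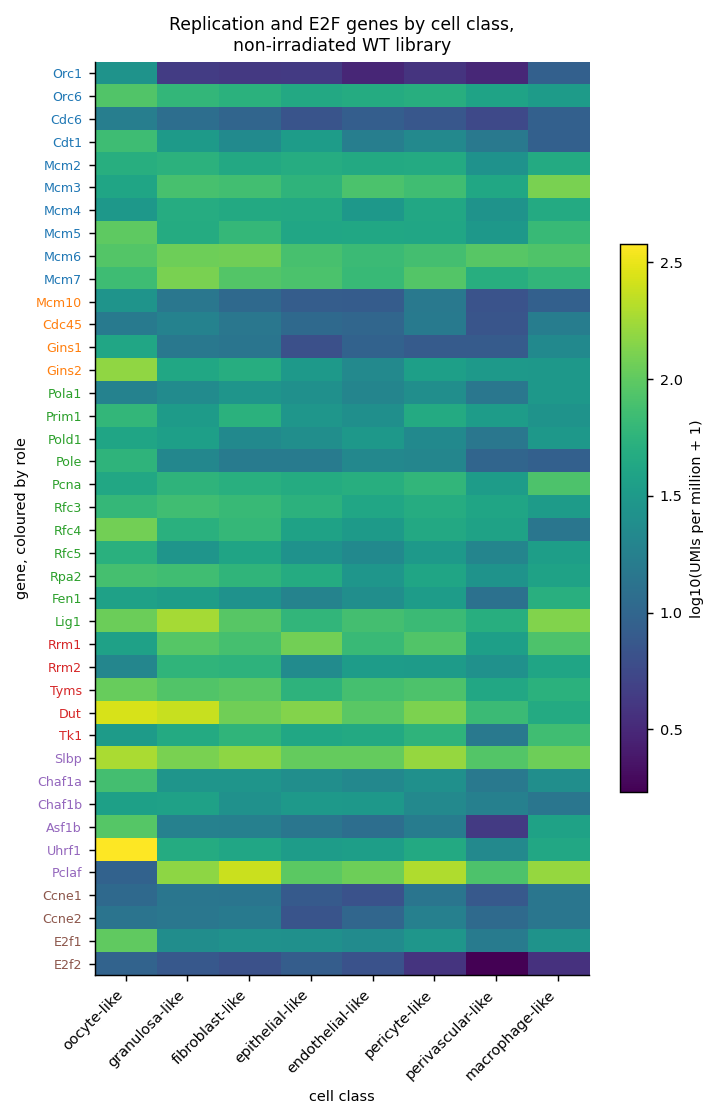
Level of each of the 40 genes (y axis, coloured by role) in 8 cell classes (x axis) of the non-irradiated WT library, as log10 of UPM plus 1 (colour bar). Uhrf1, Dut and Slbp are bright in oocyte-like cells, where Pclaf is at 8.331 UPM, and Orc1 is at 26.31 UPM in oocyte-like and 3.433 UPM in granulosa-like cells.

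Oocyte-like cells were 196 of 9277 cells in that library and held 15.57% of all its UMIs. They held 20.09% (19.97 to 20.21%) of the summed UMIs of the 40 genes. The share was 61.95% (61.23 to 62.67%) for Uhrf1 and 59.59% (56.84 to 62.3%) for Orc1, so most UMIs of these genes in the dissociated ovary came from oocyte-like cells. It was 49.98% for the histone chaperone gene Asf1b, 43.9% for E2f1, 39.6% for Gins2, 37.6% for Pole and 32.9% for Cdt1. At the other end it was 10.7% for Tk1, 6.32% for Rrm2 and 0.817% for Pclaf. Across the 40 genes, this share and the bulk log2FC had a Pearson r of -0.49 (Spearman rho -0.40) for IR in WT, 0.56 (0.52) for IR in Chek2-/-, -0.66 (-0.61) for the difference between these and -0.36 (-0.30) for Chek2-/- against WT. These describe 40 genes that share libraries and are not independent replicates. The bulk values included the Chek2-/- libraries numbered 6, which had low oocyte markers, and r without them was not computed.

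Oocyte-like cells of the 4 libraries differed in number and depth. There were 196, 172, 75 and 140 such cells (WT non-IR, WT IR, Chek2-/- non-IR, Chek2-/- IR), with median UMIs per cell of 181498, 14536, 159208 and 120518. The irradiated WT cells were thus far shallower, and 70 of the 172 had fewer than 5000 UMIs, against 17 of 196 without IR. The summed level of the 40 genes was 2837 UPM without and 3392 UPM with IR in WT (ratio 1.196, 1.182 to 1.21), and 3135 and 3225 UPM in Chek2-/- (ratio 1.028, 1.015 to 1.042). After thinning each cell to 5000 UMIs, the median number of UMIs of the 40 genes per oocyte-like cell was 14, 14.5, 15 and 14. Thinning left out the shallower cells (17, 70, 4 and 28) and gives a median per cell instead of a sum, so these values cannot be set against the summed levels. A second random thinning of the same cells gave medians of 14, 15, 14 and 15.

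Single genes moved apart in irradiated WT oocyte-like cells, with ratios from 0.6216 to 2.183 (median 1.153, 10 of 40 below 1). Oocyte-like cells were pooled over stages of oocyte growth, and the part of the stage mix in these ratios was not tested. Orc1 was at 26.31 UPM (761 UMIs) without and 16.35 UPM (219 UMIs) with IR, a ratio of 0.6216 (0.5324 to 0.7233). In Chek2-/- it was at 31.34 and 26.09 UPM, a ratio of 0.8325 (0.7249 to 0.9566). Both ratios lay below 1, their difference was not tested, and the irradiated WT cells were the shallowest. The same gene had the lowest bulk log2FC in WT. Mcm10, a helicase activation factor, had the next lowest WT ratio (0.7467). The highest were Ccne1, at 9.817 and 21.43 UPM (ratio 2.183, 1.846 to 2.581), and Rrm2, at 19.43 and 38.6 UPM (ratio 1.987, 1.76 to 2.243). These were also the genes with a higher bulk level at an unadjusted p under 0.05 in WT ovaries. In Chek2-/- oocyte-like cells the median ratio was 1.005, with 19 of 40 below 1, and the extremes were Ccne1 (0.7738), Orc1, Cdc6 (1.182) and Slbp (1.401).

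Granulosa-like cells gave opposite values in the 2 genotypes. In granulosa-like cells the summed level of the 40 genes was 2233 UPM without and 1955 UPM with IR in WT (ratio 0.8753, 0.8692 to 0.8814), and 2266 and 2658 UPM in Chek2-/- (ratio 1.173, 1.166 to 1.18). In WT, 39 of 40 genes had a ratio below 1 (median 0.8676), from Pole (0.7257, 0.6706 to 0.7851) and Pold1 (0.7584) to Asf1b (0.999) and Rrm2 (1.05). In Chek2-/-, 0 of 40 were below 1 (median 1.209), from Slbp (1.001) and Orc6 (1.028) to Mcm10 (1.335) and Chaf1a (1.365). The difference between the 2 genotypes was not tested, with 1 library for each.

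The lower level in WT granulosa-like cells was not seen in cluster 0, which was named as dividing by G2 and mitosis markers. That name does not show that cells of the other clusters were not dividing. In cluster 0 the summed ratio was 1.066 in WT and 0.9782 in Chek2-/-, with 3687, 3930, 3934 and 3848 UPM, and the thinned median was 15 UMIs per cell in each library. In cluster 1 it was 0.875 in WT and 1.123 in Chek2-/-, with 2211, 1935, 2268 and 2548 UPM. Its thinned medians were 6, 4, 6 and 8 UMIs, and its upper quartiles 15, 11, 15 and 16.75 UMIs. Its top deciles began at 25, 23.5, 25 and 27 UMIs. In the non-irradiated WT library they began at 9 UMIs in cluster 2 and 6 UMIs in cluster 8. Cluster 1 thus held cells with many UMIs of these genes, and the part of their share in its ratio was not tested. The ratios were 0.8985 and 1.315 in cluster 2 and 1.03 and 1.064 in cluster 8. Cluster 0 held 610 of 3040, 666 of 3636, 620 of 3267 and 909 of 3521 granulosa-like cells, so it was largest in the irradiated Chek2-/- library. Cluster 8, the lowest of the 4 in summed level, held 748, 1206, 1025 and 752 of the same totals, so it was largest in the irradiated WT library. The G2 and mitosis genes summed over granulosa-like cells had ratios of 0.9711 in WT and 1.317 in Chek2-/-. The part of these cell numbers in the class ratios was not tested.

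Fibroblast-like cells had a slightly higher level with IR in both genotypes. The summed level was 2061 UPM without and 2230 UPM with IR in WT (ratio 1.082), and 2144 and 2405 UPM in Chek2-/- (ratio 1.122). Ratios of single genes in WT had a median of 1.05, from Orc1 (0.9018) and Pole (0.9344) to Tyms (1.232), which encodes thymidylate synthase, and Ccne1 (1.286). In Chek2-/- the median was 1.135, from Slbp (0.9809) and Orc6 (1.006) to Uhrf1 (1.254) and Mcm10 (1.334). The dividing cluster 6 was level, at 4357, 4338, 4350 and 4294 UPM (ratios 0.9957 and 0.9869), and it held 799 of 5026, 1033 of 4864, 694 of 4451 and 870 of 4274 fibroblast-like cells. The ratios were 0.9048 and 1.098 (WT and Chek2-/-) in cluster 3, 1.082 and 1.005 in cluster 4 and 1.135 and 0.9414 in cluster 5. The Chek2-/- class ratio of 1.122 was thus above the ratio of each of its clusters. The G2 and mitosis genes summed over fibroblast-like cells were at 1666 and 2077 UPM in WT and 1556 and 1981 UPM in Chek2-/-, without and with IR. The part of the cell numbers per cluster in the class ratios was not tested.

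Epithelial-like cells, of which there were 133, 248, 182 and 134, had more of these mRNAs with IR in both genotypes. In epithelial-like cells the summed level was 1582 and 2020 UPM in WT (ratio 1.277, 1.24 to 1.315) and 1403 and 1872 UPM in Chek2-/- (ratio 1.334, 1.291 to 1.378). Of the genes with at least 50 UMIs in each library, 3 of 32 in WT and 0 of 31 in Chek2-/- were below 1. In WT they ran from Pole (0.8414) and Pold1 (0.9595) to the flap endonuclease gene Fen1 (1.72) and Rrm2 (2.388). In Chek2-/- they ran from Rfc3 (1.014) and Rfc4 (1.023) to Mcm5 (1.777) and Pclaf (1.883). The G2 and mitosis genes summed had ratios of 2.404 in WT and 1.388 in Chek2-/- in these cells. Endothelial-like cells had ratios of 0.9334 and 1.16, pericyte-like cells 0.8389 and 1.092, and perivascular-like cells 1.003 and 1.005, for the 40 genes summed. Without doublet removal the WT endothelial-like ratio was 1.014 and the Chek2-/- perivascular-like ratio 0.9519, and the latter was 0.8411 to 0.8937 under 3 other settings, so both crossed 1.

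**Figure D5:**
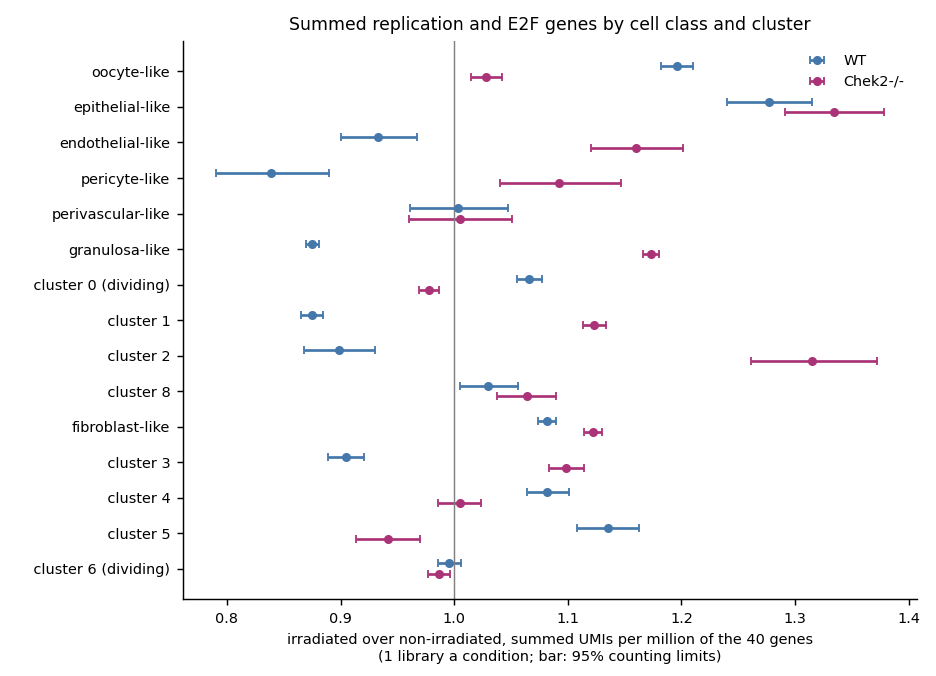
Ratio of the summed level of the 40 genes, irradiated over non-irradiated (x axis, linear), in each cell class and in the clusters of granulosa-like and fibroblast-like cells (y axis), by genotype. Bars are 95% counting limits with 1 library per condition. Granulosa-like cells lie at 0.8753 in WT and 1.173 in Chek2-/-, and the dividing cluster 6 lies near 1 in both.

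The 5 genes that were lower in non-irradiated Chek2-/- ovaries in bulk had no lower UPM within oocyte-like cells. UPM is a level within a class, here in 1 library per genotype, whereas bulk CPM also depends on how much RNA each class gives. Without IR there were 196 oocyte-like cells in the WT and 75 in the Chek2-/- library. The part of these numbers in the bulk values was not tested. Ratios of Chek2-/- over WT without IR in oocyte-like cells were 1.104 (Cdt1), 1.128 (Gins2), 1.232 (Tk1), 1.128 (Uhrf1) and 1.019 (E2f1). In granulosa-like cells they were 0.9569, 0.9662, 0.9455, 0.9462 and 1.031 in the same order, and in fibroblast-like cells 1.008, 0.935, 1.011, 0.9976 and 0.9772. Over the 40 genes summed, the ratio was 1.105 in oocyte-like, 1.015 in granulosa-like and 1.04 in fibroblast-like cells. The lowest of these 15 ratios of single genes was 0.935, for Gins2 in fibroblast-like cells. In epithelial-like cells the summed ratio was 0.8869 (0.8567 to 0.918), and the 5 genes had ratios of 0.8484, 0.7498, 1.188, 0.8348 and 0.6852 in the same order. There the limits lay below 1 for Gins2 (0.5718 to 0.9809) and E2f1 (0.5023 to 0.931), and 24 of 31 genes with at least 50 UMIs in each library were below 1. The summed ratio was 1.233 in endothelial-like, 0.9678 in pericyte-like and 1.018 in perivascular-like cells. Within fibroblast-like cells it was 0.8857 in cluster 3, where 37 of 40 genes were below 1, and 0.9986 to 1.048 in the other 3 clusters.

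Cdkn1a was higher with IR in each of these classes in WT, with ratios of 4.777 in oocyte-like, 15.46 in granulosa-like, 18.41 in fibroblast-like and 3.174 in epithelial-like cells. In Chek2-/- the ratios were 1.177, 2.177, 1.999 and 1.92. The WT levels with IR were 185.1 UPM in oocyte-like, 74.62 UPM in granulosa-like and 88.65 UPM in fibroblast-like cells.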

How the data were processed

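Bulk libraries of polyA RNA (24, in 4 groups of 6) were quantified by the authors with Salmon 1.3.0 after Trim Galore 0.6.5, and they deposited estimated counts per gene without any scaling. The 4 single-cell libraries (10x Chromium) were processed with Cell Ranger (mm10), and whole-number counts of UMIs were deposited for each gene in the 9488 to 11053 barcodes per library that Cell Ranger had called as cells, of which 9091 to 10345 passed the limits given below. The genome build of the bulk counts was not settled by the sources used here, so no gene coordinates are given for them. Samples were grouped by the labelled genotype and treatment, and 0 columns of the tables were left unused. The 40 genes and all gene lists were chosen with earlier results of these data known.

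After rounding, a gene needed at least 10 counts over 24 libraries to be kept, and kept genes were scaled by TMM and tested by the edgeR 4.0.16 quasi-likelihood test (R 4.3.3) with Benjamini-Hochberg adjustment and 1 coefficient per group. P-values rest on the spread between samples within groups, which the labels give as separate samples. In the main fit that spread was estimated over all 24 libraries together. DESeq2 1.42.0, limma-voom (limma 3.58.1), other scalings, filters and sets of libraries, a replicate block and a 2-fold minimum were alternatives. The scripts were tested on simulated data. Named genes were those called, the 3 with the smallest p per comparison, the highest per kilobase in each role, Cdkn1a, and in the wider pathway those called (at most 5) or otherwise the 2 with the smallest p. Members of the wider pathway came from lists of other replication, E2F and RB, and G2 and mitosis genes. Genes counted at an unadjusted p under 0.05 were also named in places, chosen after their values were seen.

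Cells needed at least 1000 genes, at most 20% mitochondrial and at most 50% ribosomal UMIs. Of these, 4.02 to 5.47% per library were removed as doublets (Scrublet in scanpy 1.11.5, Python 3.11.15). Cells were scaled to 10000 counts and clustered on 2000 variable genes, 30 principal components and 15 neighbours (Leiden, resolution 0.5, igraph 0.11.9). A cluster of at least 50 cells was named when 60% and at least 3 markers of a list were in 25% of its cells and 2-fold over the median cluster. These limits were set after the clusters were seen. Erythroid-like and macrophage-like cells and 3 unnamed clusters (43, 124 and 31 cells) were not compared. Named in each class were the 3 genes with the highest level and the 2 largest and 2 smallest ratios among genes with at least 50 UMIs in each library. Ratios carry exact binomial limits at 95% (scipy 1.17.1). Promoter windows were those of RefSeq.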

Additional observations from a re-analysis of the deposited data

Results flagged for a closer look

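In 10 of the 52 groups of 6 libraries examined, 1 library lay far from the other 5 by Dixon's criterion, where chance gives about 1 in 20 independent groups. These groups share libraries, and the summed level includes the single genes, so the count cannot be set against that rate. Most were the Chek2-/- libraries numbered 6. The summed level of the 40 genes was 2020 CPM in the non-irradiated one, against 2500 to 2564 CPM in the other 5, and 2099 CPM in the irradiated one, against 2411 to 2578 CPM. In the non-irradiated library numbered 6, Orc1 was at 14.64 CPM (others 26.36 to 28.63), Pole at 72.58 CPM (others 91.01 to 100.2), Cdt1 at 31.04 CPM (others 40.52 to 45.61) and Uhrf1 at 270.3 CPM (others 365.2 to 402.5). In the irradiated library numbered 6, Orc1 was at 19.22 CPM (others 26.38 to 28.64) and Chaf1b at 14.1 CPM (others 17.82 to 19.2). The same 2 libraries were below the range of the other 22 in the summed G2 and mitosis genes (1264 and 1341 CPM, others 1601 to 1978 CPM) and the granulosa markers (1346 and 1318 CPM, others 1410 to 2022 CPM), and above it in summed endothelial (567.2 and 487.9 CPM, others 365.5 to 477.9 CPM) and pericyte markers (629.3 and 533.7 CPM, others 289.5 to 493.3 CPM). Their fibroblast markers, 4706 and 4545 CPM, lay within the range of the others. The part of these marker levels in the low values was not tested.

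Elsewhere, Pole was at 81.27 CPM in the non-irradiated WT library numbered 2 (others 91.93 to 97.01), and Pcna was at 142.8 CPM in the non-irradiated WT library numbered 1 (others 114.1 to 122.7).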

How the results depend on the processing

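Direction under the alternatives was followed for the members called or among the 3 smallest p-values of each bulk comparison, and none of these reversed. It was not followed for other genes or markers. In irradiated against non-irradiated WT ovaries the count of called members of the 40 (0) became 2 with DESeq2, 1 with the replicate block (2.47% of all genes), 3 with the compared groups only (2.89%), 6 without both Chek2-/- libraries numbered 6 and 0 to 2 without single libraries. The count over all genes was 288 with a 2-fold minimum, 1009 without both libraries numbered 6 and 516 to 657 without single libraries. In Chek2-/- ovaries the count over all genes was 14 with DESeq2, 1 with a 2-fold minimum, 1 with the compared groups only and 2 to 4 without single libraries, and no member was called. For the interaction it was 458 with DESeq2, 167 with a 2-fold minimum and 221 to 323 without single libraries, and 1 member was called without both libraries numbered 6. Between non-irradiated genotypes the count of called members (5) became 8 with the replicate block (7.56% of all genes, 5.34% without it), 0 with a 2-fold minimum, 2 with the compared groups only and 0 to 6 without single libraries. Over all genes it was 2423, 211, 785 and 573 to 1794 with DESeq2, a 2-fold minimum, the compared groups only and single libraries left out. The cause of these changes was not tested.

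No source used here says whether same-numbered libraries share an animal, litter or batch. Their deviations had correlations of 0.058 to 0.657 between the Chek2-/- groups, -0.047 to 0.397 between the WT groups and 0.022 to 0.123 between the non-irradiated groups, and were over 0.1 in 5, 3 and 2 of 6 pairs. A library correlated best with its own number in 7, 4 and 4 of 12 cases. As no source gives pairs, the numbers were not taken as pairs, and the replicate block is given here only. Whether same-numbered Chek2-/- libraries share a source was not tested. With the replicate block, Orc1 was the gene called after IR in WT ovaries (edgeR adjusted p = 0.042). Between non-irradiated genotypes that block gave edgeR adjusted p = 0.0050 for Cdt1 and 0.0055 for E2f1.

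In single cells, without doublet removal the summed ratios of irradiated over non-irradiated were 0.8977 and 1.161 in granulosa-like (WT and Chek2-/-), 1.014 and 1.052 in endothelial-like, 0.9295 in pericyte-like (WT) and 1.052 and 0.9519 in perivascular-like cells. With at least 2000 genes per cell they were 1.157 in pericyte-like cells (Chek2-/-) and 1.086 and 0.8937 in perivascular-like cells. The Chek2-/- perivascular-like ratio was 0.8411 at a Leiden resolution of 1.0 and 0.8816 with the 40 genes among the variable genes, where the Chek2-/- epithelial-like ratio was 1.284. The WT endothelial-like ratio and the Chek2-/- perivascular-like ratio thus crossed 1. With 1 single-cell library per condition, spread between animals is unknown.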
